A study of Mus musculus with 14 samples.

Results

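Ischemia was compared with normal conditions in the superior mesenteric artery (SMA) of wild-type (WT) mice, the vessel that supplies most of the intestine. The comparison used the 6 libraries that the labels give as Drp1 +/+, with 3 normal mice and 3 mice after ischemia, out of 14 mice sequenced in the study. The other 8 mice are heterozygous, Drp1 flox/+ by the labels, and split into 4 normal and 4 ischemic mice. The study's text calls them Drp1 KO mice (Drp1 +/-), with a frameshift made by CRISPR editing, and gives no Cre driver. It reports fewer reads of the targeted exon and less Drp1 protein in KO mice than in WT mice. Drp1, listed by its gene symbol Dnm1l, is the GTPase that divides mitochondria, and the study asked what it does in the artery wall when blood flow fails. All mice were C57BL/6 and 8 weeks old by the labels, and each library came from 1 mouse. The study's methods describe ischemia as blood drawn from the femoral artery of an anaesthetized animal, and they give no sham operation for the normal mice. Anaesthesia, catheter and surgery therefore cannot be told apart from the loss of blood. The labels give an ischemic period of 2 h, and the study's text gives a longer one. Expression was measured as RNA-seq read counts of each gene symbol, and every gene that passed a filter on low counts was compared.

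Loss of blood flow is known to activate the endothelium, the cell layer that lines the vessel. In resting cells, the transcription factor NF-kB is held in the cytoplasm by IkB proteins. Once released, it switches on adhesion molecules that slow passing leukocytes, chemokines that attract them, and its own inhibitors, so that the response limits itself. Smooth muscle makes up most of the wall of an artery of this kind, and perivascular fat surrounds it.

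Several genes with the smallest p-values are known targets of NF-kB, so their promoters are shown with the matches to the kappaB consensus, the decamer that NF-kB binds. Each sequence is the 200 bases before the transcription start that RefSeq lists on GRCm38.p6, written 5′ to 3′ on the strand of the gene, with matches on either strand in capitals.
Nfkbia (chr12:55492648-55492847, minus strand): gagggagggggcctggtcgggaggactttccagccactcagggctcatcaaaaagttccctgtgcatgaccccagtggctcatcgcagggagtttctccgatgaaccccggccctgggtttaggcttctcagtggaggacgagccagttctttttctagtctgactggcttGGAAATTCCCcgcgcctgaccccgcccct
Cxcl1 (chr5:90891045-90891244, plus strand): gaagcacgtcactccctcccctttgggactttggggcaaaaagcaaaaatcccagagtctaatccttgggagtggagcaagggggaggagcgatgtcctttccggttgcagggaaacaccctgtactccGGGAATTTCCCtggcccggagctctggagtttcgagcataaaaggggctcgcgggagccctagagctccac
Cxcl2 (chr5:90903699-90903898, plus strand): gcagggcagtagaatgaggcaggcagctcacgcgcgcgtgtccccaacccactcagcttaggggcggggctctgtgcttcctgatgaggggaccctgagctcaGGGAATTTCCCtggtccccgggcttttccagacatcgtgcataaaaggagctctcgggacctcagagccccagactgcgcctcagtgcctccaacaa
Icam1 (chr9:21015740-21015939, plus strand): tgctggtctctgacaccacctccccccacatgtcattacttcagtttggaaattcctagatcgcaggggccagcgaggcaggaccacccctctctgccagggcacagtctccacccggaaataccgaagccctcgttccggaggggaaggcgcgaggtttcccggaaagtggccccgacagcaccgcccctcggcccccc
Sele (chr1:164048034-164048233, plus strand): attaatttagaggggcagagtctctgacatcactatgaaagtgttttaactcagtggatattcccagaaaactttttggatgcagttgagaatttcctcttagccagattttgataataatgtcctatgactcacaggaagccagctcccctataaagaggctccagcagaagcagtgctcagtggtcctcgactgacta
Nfkbia, which encodes the inhibitor IkB alpha, holds a match at 29 to 20 bases before the start. The capitals of Cxcl1 and Cxcl2 are each 2 overlapping matches, on opposite strands, that cover bases 71 to 61 and 97 to 87 before the start. The windows of Icam1 and Sele hold no match to the full consensus, which says only that these letters are not in these 200 bases. Of all 27025 promoters in the table, 5.84% hold a match in this window. Among the 12 genes named below as higher after ischemia, 7 have a promoter in the table and 3 of these hold a match (42.9%), the third being Tnfaip3. Of the 12 genes named as lower, 0 of the 9 with a promoter hold one. A match was not tested for binding, and for Cxcl1 and Cxcl2 GENCODE M21 places the start further upstream, inside the window shown. For Tnfaip3 it places the start upstream of the whole window, so by that annotation the matches of Tnfaip3 lie inside the gene.

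The 6 libraries held 25612646 to 36795661 counts each, and 3 counts, the smallest number taken as a detected level, correspond to 0.0815 to 0.117 counts per 1000000 counts (CPM) before scaling between libraries. No pair of mice within a WT group agreed within sampling noise, since the lowest chi-square over genes was 138.4 times its degrees of freedom. By its label, replicate 3 of the normal mice was read on lane 1 and every other library of the study on lane 8, so lane and mouse cannot be told apart for it. Smooth muscle genes were abundant in each library, with a summed level of 10820 to 37100 CPM over 15 contractile genes in normal mice and 30400 to 52410 CPM in ischemic mice. Replicate 2 of the normal mice stood apart by fat cell genes. Its Ucp1, the uncoupling protein of brown fat, was at 3948 CPM, against 40.2 and 639 CPM in the other normal mice and 66.3, 776 and 304 CPM in the ischemic mice. Among the ischemic mice, replicate 2 had the highest value of most inflammatory genes described here. Without normal replicate 2, 8 of the 45 list members that were past the unadjusted limits (defined in the next paragraph) as lower stayed past them, and 29 of the 53 that were higher. Without ischemic replicate 2, the numbers were 27 of 45 and 26 of 53. Values without these mice are given for the members that moved most. In whole tissue, fewer cells of a type and less RNA per cell cannot be told apart.

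Across the 17693 genes tested, 2 genes were called, both higher after ischemia, and 0 were called lower. They were Nfkbia and Icam1. A call required a false discovery rate (FDR) under 0.05, by the Benjamini-Hochberg adjustment of edgeR's quasi-likelihood test, and a fold change over 1.5. These calls are 0.0113% of the genes tested. With the p-value left unadjusted, 1693 genes (9.57%) were under 0.05. Adding the fold limit left 547 higher genes (3.09%) and 875 lower genes (4.95%), referred to below as past the unadjusted limits. The 3 normal and 3 ischemic mice did not overlap for 1173 genes that were higher (6.63%) and 782 that were lower (4.42%). For a single gene, an exact permutation test of 3 against 3 mice cannot go below p = 0.10. The median log2 fold change of all genes tested was -0.01. The number of calls depended on the test, since DESeq2 gave 73 higher and 39 lower genes at the same limits, and limma-trend gave 4 higher and 0 lower. With the replicate numbers of the labels as a block, edgeR gave 0. With the 6 WT mice fitted alone it also gave 0, with 655 genes at an unadjusted p under 0.05, and a smallest FDR of 0.5.

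**Figure D1:**
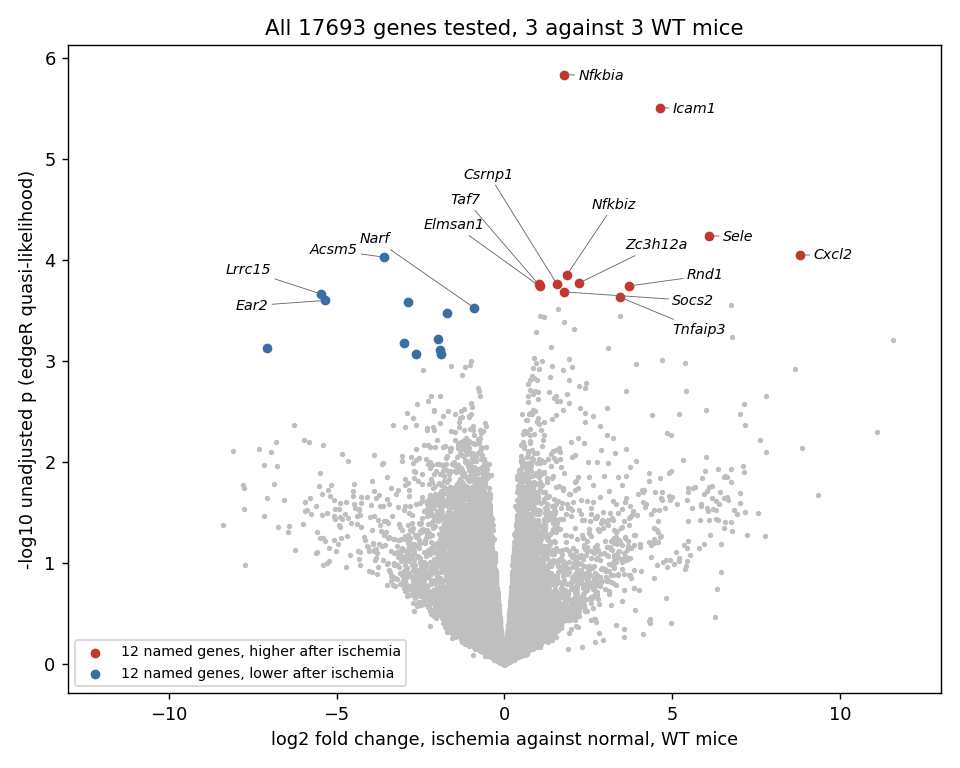
Log2 fold change after ischemia in WT mice (x axis) and -log10 of the unadjusted p of edgeR's quasi-likelihood test (y axis) for each of the 17693 genes tested. The 12 named genes on each side are coloured, and Nfkbia and Icam1, the 2 genes called, are the highest points.

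Several feedback inhibitors of NF-kB were higher in every ischemic mouse than in any normal mouse. Nfkbia lies on chr12:55489410-55492647 (GRCm38, minus strand, protein coding). It was at 135, 105 and 119 CPM in the 3 normal mice (replicates 1, 2 and 3, as in every list of values here) and at 356, 467 and 402 CPM in the 3 ischemic mice. The lowest ischemic mouse was thus above the highest normal mouse by more than the range within either group. Nfkbia rose 3.41-fold, from 119.8 ± 15.4 CPM to 408 ± 55.7 CPM (SD, n = 3 each), with a log2 fold change of 1.77 (standard error 0.22) and an FDR of 0.0256 in edgeR's test. Its call did not hold with the replicate block (FDR = 0.0735, edgeR) or without normal replicate 1 (FDR = 0.0521), 2 (0.220) or 3 (0.219), nor without ischemic replicate 2 (0.119) or 3 (0.0741). Without ischemic replicate 1 it held, with an FDR of 0.0311 in edgeR's test. Over these 6 fits, the log2 fold change stayed between 1.64 and 1.86.

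Tnfaip3 encodes A20, the enzyme that removes ubiquitin chains from the signalling complexes upstream of NF-kB. It was at 15.6, 5.89 and 10.6 CPM in normal mice and at 58.0, 246 and 42.9 CPM in ischemic mice. Nfkbiz, an IkB-like protein of the nucleus, went from 30.0, 22.5 and 15.7 CPM to 93.2, 104.8 and 49.1 CPM. Zc3h12a, the RNase Regnase-1 that degrades cytokine mRNAs, was at 14.4, 8.73 and 9.55 CPM before and 27.7, 94.2 and 30.3 CPM after. In none of the 3 genes did the groups overlap. None was called. The log2 fold changes were 3.43 (standard error 0.69) for Tnfaip3, 1.86 (0.35) for Nfkbiz and 2.22 (0.43) for Zc3h12a, each with an FDR of 0.283 in edgeR's test. Without ischemic replicate 2, the log2 fold change of Tnfaip3 was 2.21 and that of Zc3h12a was 1.39.

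Of the 13 genes of NF-kB subunits and feedback inhibitors, 1 was called (Nfkbia), 6 were past the unadjusted limits with a higher level, and 6 did not overlap between the groups with higher values in ischemia, while 0 were lower by either measure. Over all genes, 0.0113% were called, 3.09% were past these limits as higher, and 6.63% did not overlap with higher values. All 13 log2 fold changes were above 0, from 0.31 for Nfkb1, the subunit p50 and its precursor, to 4.56 for Tnip3, which was detected at 1.09 CPM in a single ischemic mouse. The subunits differed among themselves. Rel was at 1.48, 1.95 and 0.944 CPM in normal and 2.55, 6.80 and 3.26 CPM in ischemic mice, with a log2 fold change of 1.52. Relb was at 12.5, 8.45 and 12.7 CPM in normal and 15.0, 55.1 and 19.5 CPM in ischemic mice, a log2 fold change of 1.41. Rela, which encodes the subunit p65, had a log2 fold change of 0.55, which is below the fold limit, although its groups did not overlap either. Without ischemic replicate 2, the log2 fold changes of Relb and Rel were 0.60 and 0.97, and 3 of the 6 genes stayed past the unadjusted limits. The median log2 fold change of the 13 genes was 1.41, against -0.01 for all genes, and it was 0.27 without ischemic replicate 2 and 1.66 without normal replicate 2.

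Adhesion molecules that activated endothelium displays to leukocytes had the largest called change. Icam1 encodes the ligand of leukocyte integrins and lies on chr9:21015985-21028817 (GRCm38, plus strand, protein coding). It was at 33.0, 16.7 and 18.2 CPM in normal mice and at 314, 1089.7 and 272 CPM in ischemic mice. The groups did not overlap, and ischemic replicate 2 was far above the other ischemic mice. Icam1 rose from 22.6 ± 9.04 CPM to 559 ± 460.4 CPM (SD, n = 3 each), a fitted 24.7-fold change with a log2 fold change of 4.62 (standard error 0.61) and an FDR of 0.0272 in edgeR's test. Its FDR in edgeR's test was 0.0899 with the replicate block, and 0.0521, 0.338 and 0.219 without normal replicates 1, 2 and 3. Without ischemic replicate 2 the FDR was 0.0622 and the log2 fold change 3.67, whereas the call held without ischemic replicate 1 (FDR = 0.0311) or 3 (FDR = 0.0325).

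Sele encodes E-selectin, which endothelium makes only once activated. It was at 1.98, 3.59 and 1.43 CPM in normal mice and at 124, 286 and 67.0 CPM in ischemic mice, so that the lowest ischemic mouse exceeded the highest normal mouse many times over. Vcam1, the ligand of the integrin VLA-4, was at 45.8, 25.0 and 25.0 CPM in normal mice and at 84.6, 627 and 101 CPM in ischemic mice. Selp, the P-selectin of endothelial and platelet granules, went from 11.2, 4.54 and 4.57 CPM to 26.3, 259 and 21.0 CPM. For both of these genes the groups did not overlap, and ischemic replicate 2 set most of the group mean. The log2 fold changes were 6.09 (standard error 1.06, FDR = 0.283 in edgeR's test) for Sele, 3.08 (0.71, FDR = 0.394) for Vcam1 and 3.91 (0.94, FDR = 0.400) for Selp. Without ischemic replicate 2, those of Vcam1 and Selp were 1.52 and 1.78, and both genes stayed past the unadjusted limits. The other 5 tested adhesion genes of the list, Pecam1, Cdh5, Icam2, Esam and F11r, form junctions or are present in resting endothelium, and their log2 fold changes lay between -0.50 and -0.04 with overlapping groups. Of the 9 genes, 1 was called (Icam1), 4 were past the unadjusted limits as higher and 0 as lower, and their median was -0.04. As shares of all genes, 0.0113% were called and 3.09% were past these limits as higher.

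**Figure D2:**
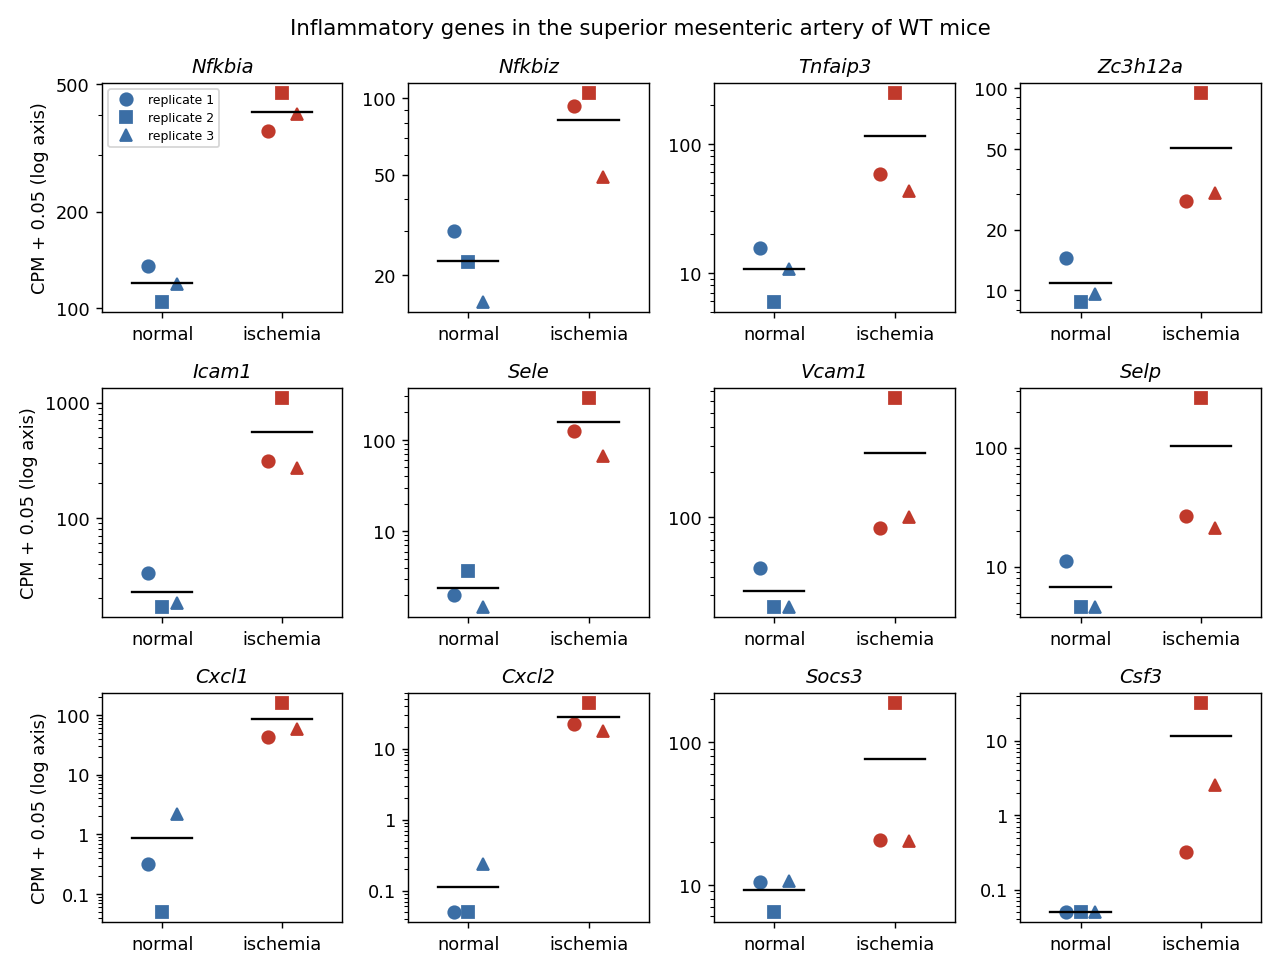
TMM-scaled CPM plus 0.05 on a log axis for 12 inflammatory genes in each of the 3 normal (blue) and 3 ischemic (red) WT mice, with symbols for the replicates and a bar at the group mean. No panel has overlapping groups, and ischemic replicate 2 (square) is the highest point in each.

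Chemokines for neutrophils had few reads in normal mice, most of them in replicate 3, the library of lane 1. Cxcl2, a ligand of the receptor CXCR2, had 0, 0 and 5 reads in normal mice and 730, 1271 and 643 reads in ischemic mice, or 22.2, 43.2 and 17.8 CPM after ischemia. Cxcl1, another ligand of that receptor, had 9, 0 and 57 reads in normal mice. It was at 0.266, 0 and 2.15 CPM in normal mice and at 42.6, 156 and 57.6 CPM in ischemic mice. Neither gene overlapped between the groups, and their log2 fold changes were 8.82 (standard error 1.61) and 6.75 (1.39), both with an FDR of 0.283 in edgeR's test. Cx3cl1, the membrane-bound chemokine fractalkine, went from 15.5, 9.34 and 10.3 CPM to 18.0, 60.9 and 18.5 CPM, a log2 fold change of 1.47, or 0.62 without ischemic replicate 2. Ccl3, a chemokine made mainly by leukocytes, had 0 reads in all normal mice and 37 reads over the ischemic mice, at least 11.1-fold higher with 3 reads over the normal group as the floor, or 5.98-fold by the 14 reads outside ischemic replicate 2. Among the 19 chemokine ligands tested, these 4 were past the unadjusted limits as higher, where 3.09% of all genes were, and 0 as lower. A log2 fold change above 0 was found for 13 of the 19. The median of the list was 1.10 with all mice but -0.37 without ischemic replicate 2, in which Ccl4, Cxcl10, Ccl2 and Ccl7 had their highest values. Ccl2, the main chemokine for monocytes, was at 4.78, 0.533 and 1.55 CPM in normal mice and at 0.669, 12.8 and 1.38 CPM in ischemic mice, which overlap.

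Cytokines and the Socs genes that restrain their receptors followed. Socs2, an inhibitor of growth hormone receptor signalling, was at 64.1, 27.7 and 29.1 CPM in normal mice and at 87.5, 169 and 159 CPM in ischemic mice. Socs3, the inhibitor that IL-6 type cytokines induce, was at 10.5, 6.39 and 10.6 CPM and then at 20.4, 187 and 20.1 CPM. Both separated the groups, with log2 fold changes of 1.78 (standard error 0.35, FDR = 0.283 in edgeR's test) and 3.05 (0.84, FDR = 0.513), but without ischemic replicate 2 that of Socs3 was 1.12. Csf3, the growth factor of neutrophils, had 0 reads in all normal mice and 0.274, 31.5 and 2.49 CPM in ischemic mice, at least 307-fold higher by its 1025 reads over the ischemic group, or at least 42.3-fold by the 99 reads outside ischemic replicate 2. Il6 had 0 reads in normal mice and 0, 24.5 and 0.331 CPM in ischemic mice, so its 731 reads, at least 219-fold above the floor, came almost all from replicate 2 and the groups overlapped. The 12 reads outside that mouse are at least 5.13-fold above the floor. Lif, a cytokine of the IL-6 family, was at 0.295, 0.355 and 0.264 CPM before and 1.64, 6.16 and 2.21 CPM after, a log2 fold change of 3.44. Of the 16 genes of this list, 8 were past the unadjusted limits as higher, where 3.09% of all genes were, and 0 as lower. The others of the 8 were Csf1, Il1r1 and Cish, with log2 fold changes of 1.15, 0.81 and 1.54. The median was 1.66, and 0.89 without ischemic replicate 2, when 3 of the 8 genes stayed past the limits.

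Immediate-early genes, which encode transcription factors induced within minutes of a stimulus, were mixed. Junb, an AP-1 subunit, was at 124, 37.1 and 59.9 CPM in normal mice and at 219, 366 and 315 CPM in ischemic mice. Maff, a small Maf protein, went from 46.2, 10.1 and 22.8 CPM to 68.6, 137 and 95.3 CPM. Klf2, the endothelial factor that laminar flow maintains, lay the other way, at 123, 297 and 96.2 CPM before and 82.5, 68.7 and 68.1 CPM after. The groups did not overlap in any of the 3 genes, and the log2 fold changes were 2.03, 1.93 and -1.23, with FDRs of 0.400, 0.400 and 0.513 in edgeR's test. Of the 25 genes tested, 8 were past the unadjusted limits as higher, where 3.09% of all genes were, and 1 as lower (Klf2). Their median was 0.45, and the 8 also include Ier5, Ier2, Fosl2, Fosl1, Ier3 and Jund. Without ischemic replicate 2, 4 of the 8 stayed past the limits, and 4 did so without normal replicate 2, when Klf2 was at -0.60. Fos, Jun, Egr1, Atf3 and Nr4a1, the most familiar of them, had log2 fold changes between -0.44 and 0.45. Csrnp1, a nuclear protein induced by axin, was at 55.7, 55.9 and 32.0 CPM in normal mice and at 155, 137 and 132 CPM in ischemic mice, a log2 fold change of 1.56 (FDR = 0.283, edgeR).

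Genes that glucocorticoids induce had a median log2 fold change of 0.83 over 17 tested genes. Of these, 6 were past the unadjusted limits as higher, where 3.09% of all genes were, and 1 as lower. Cebpd, a transcription factor of the acute phase, was at 82.5, 41.7 and 37.9 CPM in normal mice and at 83.8, 323 and 204 CPM in ischemic mice. Its lowest ischemic value was barely above its highest normal value. Ddit4, an inhibitor of mTORC1, and the metallothioneins Mt1 and Mt2, which bind zinc, had log2 fold changes of 1.66, 1.47 and 2.02 with overlapping groups. Those of Mt1 and Mt2 were 0.82 and 1.19 without ischemic replicate 2, when 2 of the 6 higher genes stayed past the limits. Fkbp5, a co-chaperone of the glucocorticoid receptor, had its highest value, 27.8 CPM, in normal replicate 1 and lay at 0.604 to 5.51 CPM in the other mice. For Mt1, Mt2 and Cdkn1a too, normal replicate 1 was the highest of the normal mice. Sult1a1, a sulfotransferase, was the gene past the limits as lower, with a log2 fold change of -0.78.

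The other genes named as higher belong to no single pathway. Rnd1, a small GTPase that loosens actin fibres, was at 6.17, 1.14 and 8.83 CPM in normal mice and at 37.9, 141 and 30.7 CPM in ischemic mice, a log2 fold change of 3.70. Elmsan1, a component of histone deacetylase complexes, went from 67.1, 52.4 and 63.1 CPM to 90.0, 159 and 130.0 CPM, a log2 fold change of 1.05. Taf7, a subunit of the general transcription factor TFIID, went from 9.38, 9.44 and 8.27 CPM to 15.5, 21.4 and 18.0 CPM, a log2 fold change of 1.02. All had an FDR of 0.283 in edgeR's test and groups that do not overlap. Of the 12 named genes, 2 were called, and the fitted folds ran from 2.03 to 451.

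No gene was called lower after ischemia. The 12 genes named as lower were chosen by the smallest p among those whose groups did not overlap. They had FDRs of 0.283 to 0.400 in edgeR's test and fitted log2 fold changes of -7.07 to -0.90. The -7.07 is the fit of Cd3g, which had 0 reads in each ischemic mouse, so the size of its change is only bounded, as given below. Acsm5, a mitochondrial acyl-CoA synthetase of medium-chain fatty acids, was at 2.92, 5.40 and 1.17 CPM in normal mice and at 0.334, 0.136 and 0.304 CPM in ischemic mice. Lrrc15, a membrane protein of activated fibroblasts, was at 4.66, 22.3 and 3.59 CPM and then at 0.243, 0.034 and 0.387 CPM. Narf, a protein that binds prelamin A, was at 20.8, 26.0 and 23.8 CPM before and 13.4, 11.8 and 12.5 CPM after, with the smallest change of the 12, a log2 fold change of -0.90 (standard error 0.19). Myct1, a gene expressed in endothelium, was at 18.5, 29.5 and 10.2 CPM and then at 9.43, 3.20 and 3.09 CPM. Sox18, an endothelial transcription factor of the marker list, lay the same way, at 27.9, 89.7 and 24.0 CPM before and 17.4, 11.3 and 9.14 CPM after. Their log2 fold changes were -1.89 and -1.91, and that of Sox18 was -1.06 without normal replicate 2. The 15 endothelial markers, Sox18 among them, had a median of -0.43, or 0.13 without normal replicate 2.

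Some of the lower genes had few reads. Ear2, an eosinophil RNase from a family of near-identical genes whose reads cannot be assigned with certainty, had 122 reads over the normal mice and 3 over the ischemic mice, a ratio of 45.2 after scaling to depth with a 95% counting interval of 15.1 to 222. Cd3g, a subunit of the T cell receptor complex, had 22, 13 and 10 reads in normal mice and 0 in each ischemic mouse, at least 16.7-fold lower. Others of the 12, at various read depths, were Kctd21, an adaptor of cullin ligases, Pidd1, a death-domain scaffold of caspase-2, and Trim14, an adaptor of antiviral signalling. So were Shtn1, a cytoskeletal protein of axons, with 334, 721 and 372 reads in normal mice, and AI467606, an uncharacterized gene. The log2 fold changes of Kctd21, Pidd1, Trim14, Shtn1 and AI467606 were between -2.99 and -1.71. Normal replicate 2 had the highest value of 11 of the 12 genes. Without that mouse, each of the 12 still had a fitted log2 fold change below 0, from -7.14 for Cd3g, again a fit to 0 reads, to -0.85. The choice of genes whose groups do not overlap favours this.

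The Drp1 KO mice gave a second set of 8 animals, in which the levels of the same genes could be read. The KO mice also entered the count filter, the scaling and the shared estimate of the spread behind the WT p-values. Those p-values picked the named genes, so calls in KO mice were not fully independent of that choice. With the 6 WT mice fitted alone, 0 genes were called and the smallest FDR was 0.5 in edgeR's test. Dnm1l itself was at 58.9 ± 3.30 CPM in the 4 normal KO mice, against 73.5 ± 15.1 CPM in the 3 normal WT mice, and at 69.4 ± 6.88 CPM in the 4 ischemic KO mice, against 75.0 ± 10.3 CPM in the 3 ischemic WT mice (SD). KO is used here only as the study's name for these mice. Nfkbia was at 101, 68.5, 110 and 101 CPM in the 4 normal KO mice and at 280, 340, 314 and 382 CPM in the 4 ischemic ones. The WT and KO changes were almost equal, with log2 fold changes of 1.77 and 1.79, and their difference was 0.02 (standard error 0.28). Icam1 was at 26.4, 35.2, 27.9 and 72.6 CPM in normal KO mice and at 452, 444, 784 and 533 CPM after ischemia, a log2 fold change of 3.77. All 12 genes named as higher in WT mice were also higher in KO mice, 11 past the unadjusted limits, where 3.77% of all genes were, and 9 called, where 0.187% of all genes were called higher. For 0 of the 12 did the change differ between the genotypes at an unadjusted p under 0.05.

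All 12 genes named as lower in WT mice were below 0 in KO mice as well, but only 6 passed the unadjusted limits there, as did 6.42% of all genes, and 1 was called, Myct1 (FDR = 0.0215, edgeR), where 0.107% of all genes were called lower. Myct1 was at 18.0, 19.3, 16.7 and 23.3 CPM in normal KO mice and at 3.39, 2.92, 3.13 and 4.47 CPM in ischemic KO mice. Acsm5, in contrast, was at 1.30, 1.40, 1.33 and 2.64 CPM in normal KO mice and at 1.25, 0.921, 1.84 and 1.92 CPM after ischemia, which overlap. For 7 of the 12, the change differed between the genotypes at an unadjusted p under 0.05 in edgeR's test. These genes were chosen for their change in WT mice, which favours such a difference, and over all 17693 genes the test of the difference called 0, with 765 genes (4.32%) at an unadjusted p under 0.05, a smallest FDR of 0.946 and 13 calls by DESeq2. Read the other way, 52 genes were called in KO mice. In WT mice, 49 of them had a change of the same sign, 32 were past the unadjusted limits in the same direction, 29 did not overlap in that direction, and 2 were called.

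**Figure D3:**
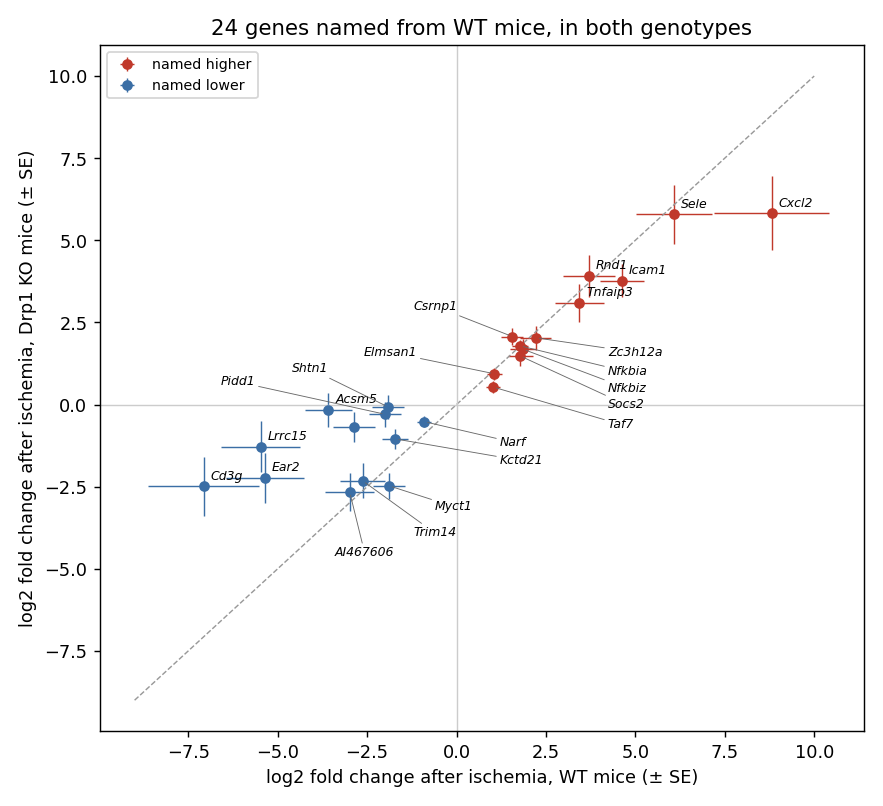
Log2 fold change after ischemia in WT mice (x axis) and in Drp1 KO mice (y axis) for the 24 genes named from the WT comparison, with standard errors as bars, a dashed line where both are equal and most genes labelled. Of the 12 higher genes, Cxcl2 lies farthest from the line, and 11 of the 12 lower genes lie nearer to 0 in KO mice.

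The genes of autophagy, mitophagy and apoptosis proteins for which the study lists antibodies, with Dnm1l and Hif1a, showed no change that passed the test. Dnm1l was at 63.8, 65.7 and 90.9 CPM in normal mice and at 81.0, 63.1 and 80.9 CPM in ischemic mice, with the highest value in the library of lane 1. Its groups overlapped, and its log2 fold change was 0.03 (standard error 0.18, FDR = 0.961 in edgeR's test). Hif1a, the oxygen-regulated transcription factor, was at 67.6, 58.9 and 117 CPM before and 109, 109 and 127 CPM after, a log2 fold change of 0.50 (standard error 0.23, FDR = 0.519, edgeR). The mitophagy receptors Bnip3 and Bnip3l had log2 fold changes of -0.86 and -0.45, and Bnip3 was at 332 CPM in normal replicate 2 and at 66.7 to 109 CPM in the other 5 mice. For Pink1 and Park2, the kinase and ubiquitin ligase that mark damaged mitochondria, and for Clec16a, which regulates that pair, the values were -0.01, -0.17 and -0.19. Mtor and Pik3ca, kinases that restrain autophagy, were at -0.42 and 0.30, and Lamp1, Map1lc3a and Map1lc3b, of lysosomes and autophagosomes, at -0.08, -0.01 and 0.02. Among apoptosis genes, Bax, Cycs and Casp9 had log2 fold changes of 0.31, -1.09 and -0.22. Cycs, cytochrome c, was at 4.57, 63.1 and 22.5 CPM in normal mice, a wide range that held all 3 ischemic mice.

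Wider lists around these proteins each held at most 2 genes past the unadjusted limits in a direction. In several of these short lists that was a larger share than over all genes, where 3.09% were as higher and 4.95% as lower. Among 24 genes that hypoxia induces, 0 were past the unadjusted limits in either direction, and the median log2 fold change was -0.04. Of 26 autophagy and mitophagy genes, 1 was past them as lower (Phb2, an inner membrane receptor, at -0.89, or -0.21 without normal replicate 2) and 0 as higher, with a median of -0.12. The 19 fission and fusion genes had 1 lower gene, Mtfp1, at -2.18, or -1.31 without that mouse, and a median of -0.13. The 23 genes of the Bcl2 family and apoptosis had 2 higher genes, Bmf and Bcl2l1, with log2 fold changes of 0.76 and 1.01, and a median of 0.18. Of these 2 genes, 0 stayed past the limits without normal replicate 2 and 1 without ischemic replicate 2. Among 18 glycolysis enzymes, 1 was past the limits as higher, the lactate exporter Slc16a3 (1.26, or 0.73 without ischemic replicate 2), with a median of -0.38. The 20 heat shock genes had 2 higher genes, the co-chaperone Bag3 (1.18) and the small heat shock protein Hspb1 (1.17), both with groups that do not overlap. Without normal replicate 2, Hspb1 was at 0.73, and 1 of the 2 genes stayed past the limits. The 22 antioxidant genes had 2 higher, Nqo1 and Osgin1, and 2 lower, Cat and Gpx3, and a median of -0.26. Of the 2 higher genes, 0 stayed past the limits without normal replicate 2 and 2 without ischemic replicate 2. Cat and Gpx3 had log2 fold changes of -1.36 and -2.21 with all mice, and of -0.35 and -0.24 without normal replicate 2.

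Genes of mitochondrial energy supply had lower medians, and these moved with the fat cell markers of normal replicate 2. Of 24 fatty acid oxidation genes, 8 were past the unadjusted limits as lower, where 4.95% of all genes were, and 0 as higher. Their median log2 fold change was -1.48. It was -0.36 without normal replicate 2, when 1 of the 8 stayed past the limits. The 74 tested nuclear subunits of the respiratory chain had a median of -0.97 and 2 lower genes, Sdha and Ndufa3, and the median was -0.16 without that mouse. The summed level of the 75 subunits listed was 4638, 34540 and 15850 CPM in normal mice and 6698, 10900 and 9281 CPM in ischemic mice, so the ischemic mice lay within the normal range. The summed level of 12 white fat markers was 2350, 40230 and 8061 CPM in normal mice and 3444, 7209 and 3663 CPM in ischemic mice, and 6 of the 12 were past the limits as lower, of which 0 stayed so without normal replicate 2. The 12 brown fat markers summed to 217, 7901 and 1957 CPM and then to 374, 1791 and 831 CPM, with 11 tested and 0 past the limits. Without normal replicate 2, the medians of the white and brown fat markers went from -1.52 to -0.16 and from -1.88 to -0.26. The part of fat tissue in the lower energy genes was not tested. The 19 lipogenesis genes had a median of -0.71. This median did not move toward 0 without normal replicate 2 (-0.76), and it was 0.1 without normal replicate 3. Their 1 lower gene was Dgat2, whose normal values ran from 37.0 to 2736 CPM. Its log2 fold change was -3.04, or -0.94 without normal replicate 2.

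**Figure D4:**
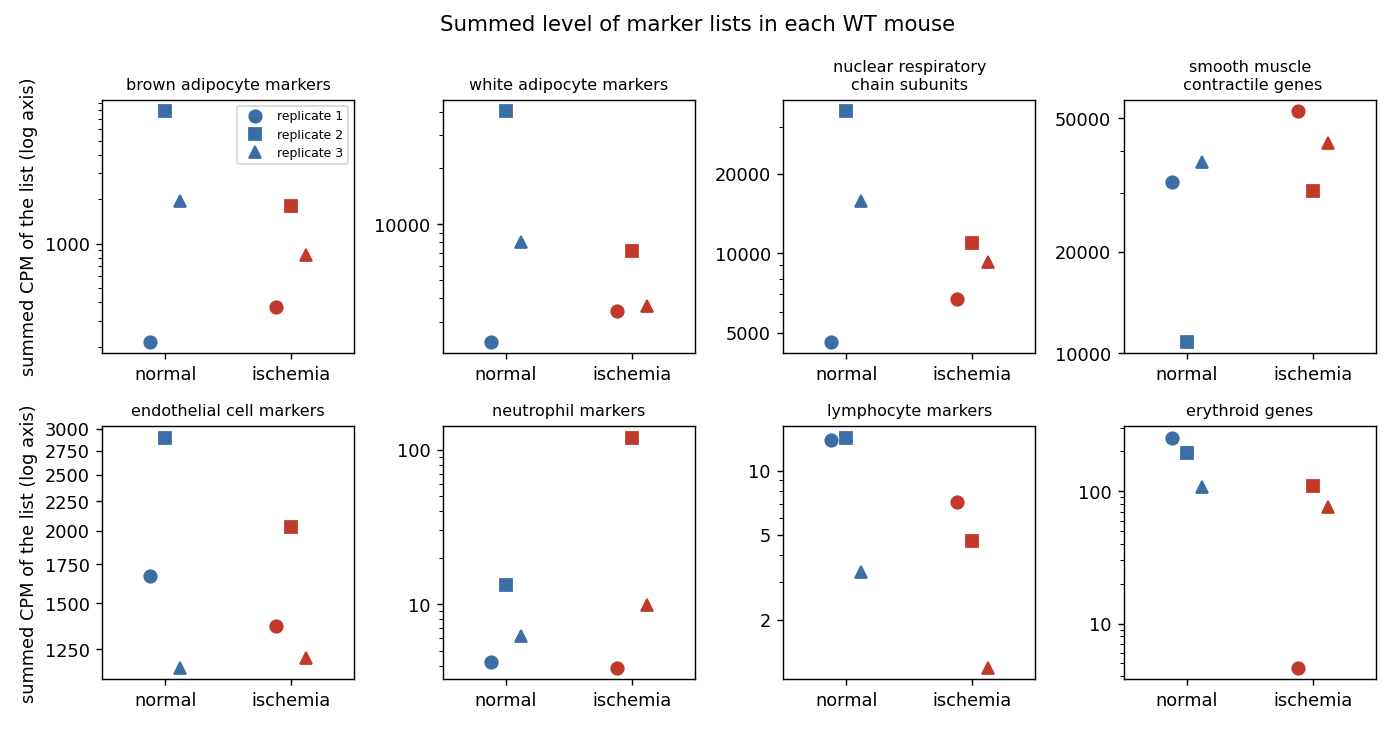
Summed TMM-scaled CPM (log axis) of 8 gene lists in each normal (blue) and ischemic (red) WT mouse, with symbols for the replicates. Normal replicate 2 is highest for fat and respiratory chain genes and lowest for smooth muscle genes, and ischemic replicate 2 is highest for neutrophil genes.

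The 13 proteins encoded by the mitochondrial genome all had a log2 fold change below 0, with a median of -0.63. Past the unadjusted limits as lower were 3 of them, ND3, COX3 and COX2, where 4.95% of all genes were. ND3, a subunit of complex I, was at 22.9, 57.6 and 20.3 CPM in normal mice and at 5.66, 19.0 and 11.8 CPM in ischemic mice, which do not overlap, a log2 fold change of -1.47 (FDR = 0.513, edgeR), or -0.85 without normal replicate 2. Together the 13 genes took 9.40% to 25.1% of all counts in normal mice and 6.46% to 19.2% in ischemic mice. The 3 genes past the limits were a small part of this. In normal replicate 1, ND3, COX3 and COX2 were at 22.9, 139 and 156 CPM, and all 13 summed to 183900 CPM. The median of the 13 was -0.24 without normal replicate 2 and -1.20 without ischemic replicate 2. In KO mice the median was -0.76, with 5 genes past the unadjusted limits as lower.

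Interferon-stimulated genes were highest in single mice. All 26 had a log2 fold change of 0 or below, with a median of -1.14, but only Rsad2, the antiviral enzyme viperin, was past the unadjusted limits. Rsad2 was at 17.1, 182 and 29.2 CPM in normal mice and at 4.44, 38.8 and 4.20 CPM in ischemic mice, so the ischemic mouse with the highest value lay inside the normal range. The median was 0.03 without normal replicate 2 and -3.70 without ischemic replicate 2, the 2 mice with the highest values of Rsad2.

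Of 18 circadian clock genes, 1 was past the unadjusted limits as higher, Nfil3, a repressor of the D-box (1.27). As lower, 5 were past them, where 4.95% of all genes were. Among these 5 were the activators of that element, Dbp, Hlf and Tef, and the period gene Per3. Per3 was at 4.34, 22.0 and 2.64 CPM in normal mice and at 2.37, 1.5 and 2.38 CPM in ischemic mice, which do not overlap. Without normal replicate 2, in which Dbp had 5469 reads against 65 and 473 in the other normal mice, 0 of the 5 lower genes stayed past the limits. The log2 fold changes were then 0.31 for Dbp, -0.06 for Hlf, -0.28 for Tef and -0.77 for Per3. Nfil3 was at 0.61 without ischemic replicate 2. In KO mice, 7 of the 18 genes were past the unadjusted limits as lower, where 6.42% of all genes were. As higher, 4 were, where 3.77% of all genes were. Dbp, Hlf, Tef and Per3 were among the 7, with log2 fold changes of -2.27, -2.16, -1.19 and -3.04. Nfil3 was called higher there, at 3.05 (FDR = 0.0246, edgeR). The time of day of tissue collection is not given in the sources used here. Among 9 dual-specificity phosphatases, which switch off MAP kinases, Dusp10 and Dusp6 were lower, with log2 fold changes of -1.63 and -1.53 (-0.94 and -0.89 without normal replicate 2) and groups that do not overlap, and 0 were past the limits as higher.

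Genes of vascular tone mostly overlapped. For this and the next lists, 3.09% of all genes were past the unadjusted limits as higher and 4.95% as lower. Of 30 tested, 1 was past the unadjusted limits as higher, Ptgs2, the inducible cyclooxygenase, with a log2 fold change of 1.5, and 4 as lower, which were Adrb1, Nos2, Ptger4 and Adra1a. Ptgs2 was at 0.51 without ischemic replicate 2, and 1 of the 4 lower genes stayed past the limits without normal replicate 2, when Nos2 was at -1.01 and Adra1a at -0.78. Adrb1, the beta-1 adrenoceptor, was at 2.39, 13.8 and 7.25 CPM in normal mice and at 1.92, 1.22 and 1.96 CPM in ischemic mice, which do not overlap. Nos3, the endothelial NO synthase, and Edn1, the vasoconstrictor peptide endothelin-1, had log2 fold changes of 0.27 and 0.59 with overlapping groups. None of the 15 smooth muscle contractile genes was past the limits, and their median was 0.56, or 0.17 without normal replicate 2. Among 20 matrix proteases and inhibitors, 5 were past them as higher, the aggrecanase-type proteases Adamts1, Adamts4 and Adamts9 and the plasmin system genes Plaur and Plat, and 1 as lower, Timp4. Adamts1 was at 382, 169 and 194 CPM before and 376, 1087 and 750 CPM after, a log2 fold change of 1.57. Adamts4 had 146, 37 and 36 reads in normal mice and 33, 1312 and 86 in ischemic mice, so ischemic replicate 2 carried it. Without that mouse, the log2 fold change of Adamts4 went from 2.77 to -0.49, that of Adamts9 from 0.82 to 0.15, that of Plaur from 1.78 to 0.64 and that of Plat from 0.69 to 0.46, and 1 of the 5 stayed past the limits. The 26 collagen and matrix genes had a median of 0.61, with 1 higher gene, Col15a1.

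Markers of blood and other cells were read as a check of what the tissue held. Over all genes, 3.09% were past the unadjusted limits as higher and 4.95% as lower. The 14 neutrophil markers summed to 4.25, 13.2 and 6.19 CPM in normal mice and to 3.86, 119.9 and 9.94 CPM in ischemic mice, and 2 of 8 tested were past the unadjusted limits as higher. These were Lcn2, at 96.1 CPM in ischemic replicate 2 and at most 4.36 CPM in the other 5 mice, and Ngp, a granule protein with 0 reads in normal mice and 1, 136 and 20 in ischemic mice, at least 47.1-fold higher, or 8.97-fold without that mouse. The log2 fold change of Lcn2 was 3.75, or 0.09 without it. The 18 lymphocyte markers summed to 13.9, 14.3 and 3.36 CPM and then to 7.12, 4.66 and 1.19 CPM, and 2 of 13 tested were past the limits as lower, Cd3g and Cd8a, the latter with 114, 0 and 10 reads in normal mice and 0 in ischemic mice. Of 7 tested erythroid genes, 3 were lower, and Hba-a2, an alpha-globin, was at 33.2, 20.4 and 10.5 CPM in normal mice and at 0.486, 9.49 and 4.39 CPM in ischemic mice. The globin genes are near-identical copies, so reads may be shared among them. Ischemic replicate 1 had the lowest summed erythroid level, 4.62 CPM, against 76.2 to 254 CPM in the other 5 mice. The part of blood cells held in the vessel in these values, and in the inflammatory genes of ischemic replicate 2, was not tested.

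Other marker lists had few or no genes past the unadjusted limits. The 15 endothelial markers summed to 1674, 2898 and 1159 CPM in normal mice and to 1367, 2032 and 1208 CPM in ischemic mice, with 1 gene past the unadjusted limits, Sox18. For 11 fibroblast markers and 14 macrophage markers, 0 were past them in either direction, and the medians were 0.49 and -0.70. The 9 mesothelial markers, of the cell layer that covers the vessel, had 0 past the limits but 5 whose groups did not overlap with higher values in ischemia, where 6.63% of all genes did so. Their summed level was 27.3, 30.7 and 30.2 CPM in normal mice and 60.0, 45.4 and 56.8 CPM in ischemic mice, which do not overlap. The median of the 9 genes was 1.10, between 0.97 and 1.19 with any WT mouse left out. Over the other alternatives of test, scaling and filter it ran from 0.38 to 1.22. In KO mice it was -1.62. Of 9 skeletal muscle genes, 1 was past the limits as higher, Tnnt3 (1.26). Pancreatic, intestinal and neural lists had 0 genes past the limits among 2, 7 and 9 tested, with medians of 0.11, 0.82 and -0.39, and 8 of the 14 pancreatic genes had no read in any WT mouse.

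**Figure D5:**
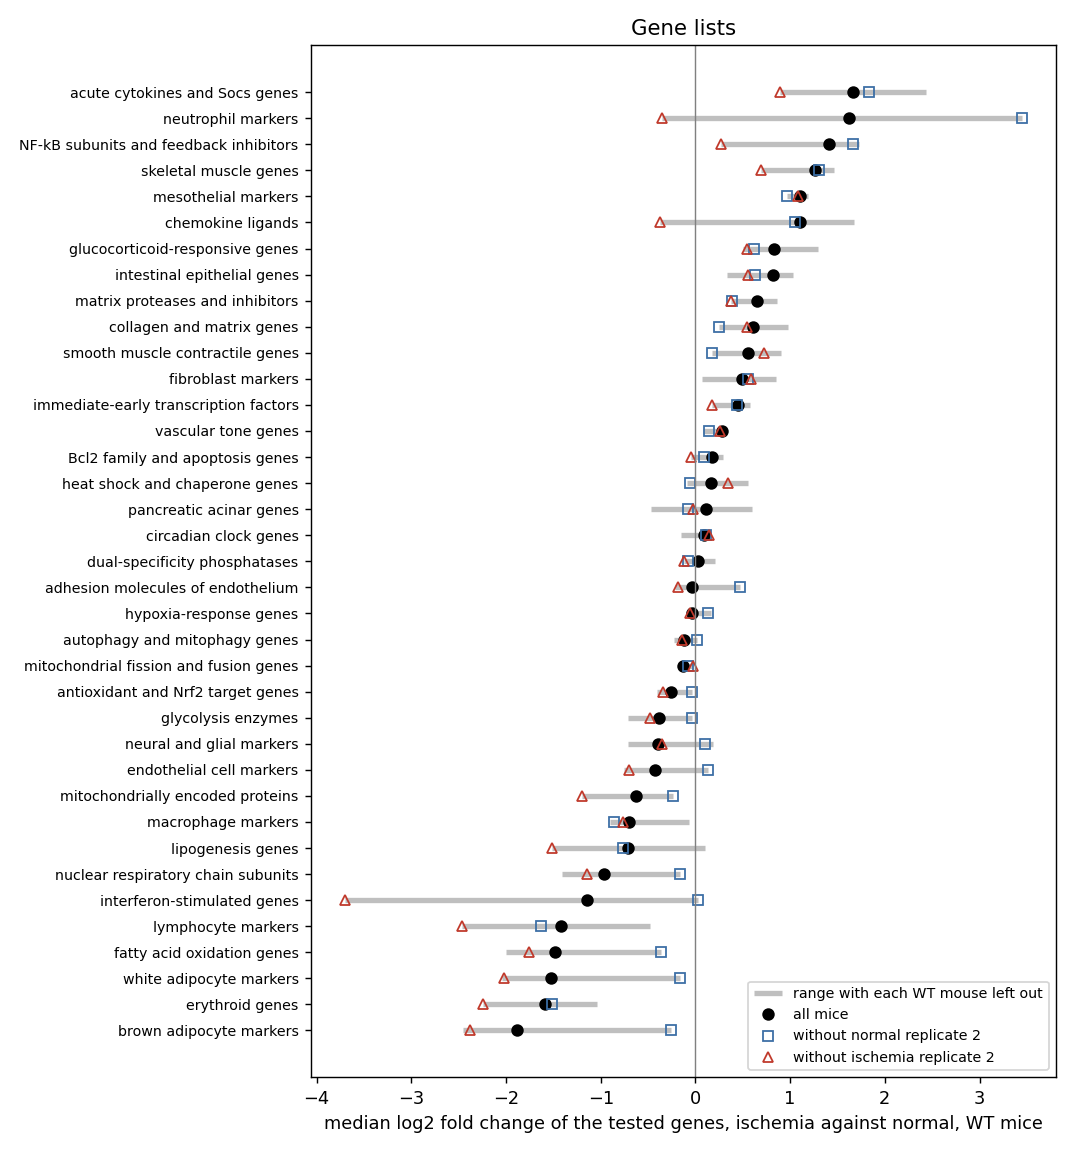
Median log2 fold change (x axis) of the tested genes of each of 37 lists in WT mice, with all mice (black), without normal replicate 2 (blue squares), without ischemic replicate 2 (red triangles) and over all 6 fits that leave out a WT mouse (grey bars). The medians of the fat cell markers, fatty acid oxidation genes and respiratory chain subunits move toward 0 without normal replicate 2. That of the lipogenesis genes does not. Those of the NF-kB, chemokine and cytokine lists move down without ischemic replicate 2.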

How the data were processed

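Total RNA of the SMA was extracted with Trizol and sequenced on an Illumina instrument. The deposited table holds raw counts of reads per gene symbol that the authors made, with HISAT2 2.0.4 and the mouse build mm10 given in the submitters' processing notes. The counting program, annotation and use of strand are not given in the sources used here, so reads of overlapping genes, antisense genes and near-identical copies cannot be assigned with certainty.

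From 46095 symbols, 27727 had a count in at least 1 mouse and 17693 passed edgeR's filterByExpr. Counts of all 14 mice were scaled by TMM and fitted with edgeR's quasi-likelihood test (edgeR 4.0.16, R 4.3.3) in 4 groups that share 1 estimate of the spread (common biological coefficient of variation 0.522), with Benjamini-Hochberg adjustment over all genes tested. A gene was called at FDR under 0.05 and a fold change over 1.5. CPM values were computed from the counts with TMM scaling, and fold changes come from the fit, so a fold can differ from the ratio of mean CPM. The procedure was tested on simulated counts. The labels number the mice within each group. In WT mice, deviations from the group means over genes correlated between same-numbered normal and ischemic mice (r = 0.123, 0.192 and 0.12) and ranged from -0.181 to 0.071 between the others. Deviations within a group sum to 0, so higher values for some pairs go with lower values for others. Between same-numbered mice of all 4 groups, r ran from -0.146 to 0.316. The fit with a replicate block is given where it changed a call. Nothing in the labels says that equal numbers mark a shared litter or day.

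The genes named were the 12 with the smallest p in each direction whose groups did not overlap and whose unadjusted p and fold passed the limits, the leading members of 37 gene lists, Dnm1l and genes of proteins for which the study lists antibodies, and the leading markers of other cell types. Symbols of predicted genes and pseudogenes were passed over, and some further list members were named after their values were seen. A few genes that count among these are not reported by name here. Genes and lists were chosen with earlier results of these data known. Alternatives were DESeq2 1.42.0, limma-trend (limma 3.58.1), other scaling factors and count filters, no fold limit, the replicate block, the 6 WT mice alone and each WT mouse left out. Intervals and floors cover counting error only. Gene positions are from GENCODE M21 (GRCm38), and promoters are from RefSeq (GRCm38.p6).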

Additional observations from a re-analysis of the deposited data

Results flagged for a closer look

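In the 48 groups of 4 Drp1 KO mice tested for a mouse far from the rest (24 named genes, normal and ischemic), 3 were found, and chance alone gives about 1 in 20. All 3 were the same mouse, replicate 4 of the normal KO mice, with a value above the rest of its group. Cxcl2 reached 1.5 CPM in it against 0.197 CPM in the nearest, Tnfaip3 reached 19.4 CPM against 7.19 CPM, and Acsm5 reached 2.64 CPM against 1.40 CPM. The WT groups of 3 mice are too small for this test.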

How the results depend on the processing

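The 12 genes named as higher and the 12 named as lower kept their direction in WT mice under every alternative run, and DESeq2 put all 24 under an FDR of 0.05. They were chosen for groups that do not overlap in these same mice. That choice favours both results, so neither is independent support. The number of genes called did not hold. In WT mice, DESeq2 called 112 genes (73 higher, 39 lower), limma-trend called 4, all higher, and the 6 WT mice alone gave 0. Leaving out each WT mouse in turn gave 0 to 2 calls in WT mice, all higher, and 39 to 174 in KO mice, whose fit shares its estimate of the spread, against 613 in KO mice by DESeq2. The difference between the genotypes had 0 calls in each of these fits except DESeq2, with 13. With the replicate block, 0 genes were called in WT mice. The block in the 6 WT mice alone, an alternative chosen after seeing the data, called 1 gene, Sele (FDR = 0.0437, edgeR). Other scaling factors and filters called 2. Some list medians also depended on the processing. Over the alternatives that left out no WT mouse, that of the chemokine ligands ran from 0.01 to 1.12. That of the neutrophil markers ran from 0.26 to 1.67. A filter changes which members of a list are tested.

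The direction of several genes without a call turned, and the cause was not tested. Dnm1l was at -0.0081 with at least 10 counts in every mouse and at -5e-04 in the 6 WT mice, and Map1lc3b was at -0.0184 and -0.0081. With the replicate block Pink1 was at 0.0092 and Map1lc3a at 0.0368, and in the 6 WT mice with the block Map1lc3a was at 0.0402 and Map1lc3b at -2e-04. Map1lc3a was at 0.0658 in limma-trend. With single mice left out, log2 fold changes ran from -0.0731 to 0.22 for Dnm1l, -0.0865 to 0.0769 for Map1lc3b, -0.20 to 0.17 for Pink1, -0.25 to 0.36 for Map1lc3a, -0.48 to 0.0713 for Clec16a, -1.22 to 0.13 for Bnip3, -0.28 to 0.13 for Lamp1, -1.61 to 0.0432 for Cycs, -2.51 to 0.35 for Cfd, -3.11 to 0.31 for Dbp, -0.49 to 0.0659 for Park2 and -0.49 to 3.57 for Adamts4. Genes near the floor of 3 counts, such as Cd3g and Ccl3, are limited by depth.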
